A study of Homo sapiens with 12 samples.

Results

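The cyclins and kinases that carry cells from G1 into S phase were followed as mRNAs in HCT116 cells. The genes were chosen by symbol and comprised the D cyclins *CCND1*, *CCND2* and *CCND3* with *CDK4* and *CDK6*, the E cyclins *CCNE1* and *CCNE2* with *CDK2*, the phosphatase *CDC25A* and the A cyclin *CCNA2*. All 10 symbols were found among the 60580 genes listed per library, and 9 of them were among the 16123 genes tested. *CCND2* did not reach the minimum of 20 counts in any library and was not tested.

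In G1, D cyclins bind *CDK4* and *CDK6* and begin the phosphorylation of RB, which holds E2F transcription factors inactive. E2F then drives transcription of E cyclins, *CDC25A* and *CCNA2*, and cyclin E with *CDK2* completes RB phosphorylation and starts DNA replication. *CDC25A* removes the inhibitory phosphates from *CDK2*, and cyclin A takes over *CDK2* in S phase. After DNA damage, p53 induces the inhibitor *CDKN1A* (p21), which blocks these kinases, and the miR-34 microRNAs are also induced by p53 and are known to repress cell cycle mRNAs.

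HCT116 is an established colorectal cancer cell line with functional p53. RNA was sequenced from *wild-type* (*WT*) cells, transfected with the Cas9 plasmid without guide RNAs, and from *miR-34a/b/c-KO* cells (*KO* cells below), in which the regions of *miR-34a* and *miR-34b/c* had been deleted by CRISPR-Cas9. Cells of both genotypes received the solvent DMSO or 5-fluorouracil (5-FU, 4 µM), a pyrimidine analog that disturbs nucleotide synthesis, for 48 h. The cells were derived from single cells, and the sources used here do not say whether the libraries of a group came from different clones, so that the p-values measure the spread between these libraries. The file titled replicate 1 of *WT* cells in 5-FU held the same counts as replicate 3 of *WT* cells in DMSO in every gene and was not used. Thus 3 libraries of *WT* cells treated with DMSO, 3 of *KO* cells treated with DMSO, 2 of *WT* cells treated with 5-FU and 3 of *KO* cells treated with 5-FU were compared. Values are given in this order of replicates, which is 2 and 3 for *WT* cells treated with 5-FU.

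Total counts per library ranged from 22831415 to 39064210, and levels are given as CPM, counts scaled to the same library total. At this depth 3 counts correspond to 0.0778 to 0.132 CPM. The hairpin genes *MIR34A*, *MIR34B* and *MIR34C*, which were targeted, had 0 counts in every library, so that they did not check the genotype labels. *MIR34AHG*, the host transcript of miR-34a, was at 4.84 and 16.2 CPM in *WT* cells (DMSO and 5-FU) and at 22.2 and 64.6 CPM in *KO* cells, and does not check them either, as the deleted part cannot be separated from the rest of the transcript in gene counts. Of 10 markers of colorectal epithelium *KRT8*, *KRT18*, *KRT19*, *EPCAM* and *CDH1* were above 100 CPM in every library. *CDX2* was at 19.8 to 26.3 CPM and *KRT20* at 1.09 to 7.47 CPM, and *VIL1* did not exceed 2.21 CPM. *CDX1* was at 0 in every library and *LGALS4* did not exceed 0.137 CPM. In a bulk sample, fewer cells in a phase of the cell cycle and less of an mRNA per cell cannot be told apart.

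Scaled for the length of the exons, *CCND1* was the most abundant of the 10 mRNAs in each of the 4 groups. In *WT* cells treated with DMSO its level was 156.5 ± 7.49 CPM per kb (SD, n = 3), followed by *CDK4* (62.3 CPM per kb), *CCNA2* (51.3), *CDK2* (32.3), *CCNE1* (13.3), *CDC25A* (9.63), *CCND3* (6.94), *CCNE2* (5.15) and *CDK6* (2.58). *CCND2*, the D cyclin used by many other tissues, had 0 counts in 7 of the 11 libraries and at most 3 counts in a library (0.103 CPM), so that no difference could be given for it.

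**Figure D1:**
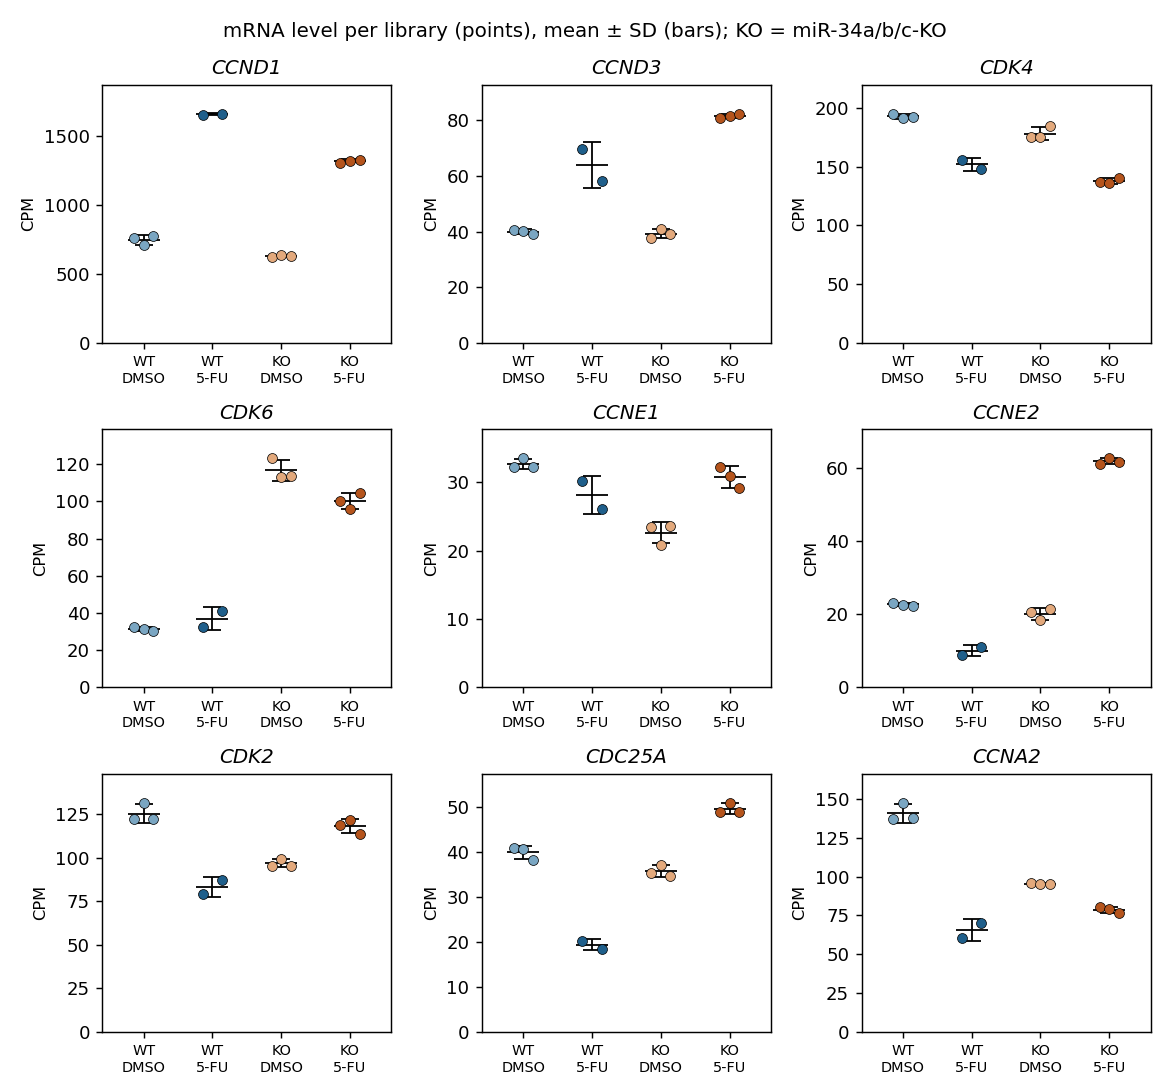
Levels of the 9 tested mRNAs in CPM on linear axes that start at 0. Points are libraries, horizontal bars are means and whiskers are SD (n = 3, or n = 2 for *WT* cells treated with 5-FU). *CCNE2* in *KO* cells treated with 5-FU (61.1 to 62.7 CPM) and *CDK6* in *KO* cells (95.9 to 123 CPM) lay far from the other groups.

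Without drug, the comparison of the genotypes asked which of these mRNAs differed between *KO* and *WT* cells. *CDK6* was the 1 member called different, and it was 3.70-fold higher in *KO* cells. A call required an FDR below 0.05 (edgeR quasi-likelihood test, two-sided, Benjamini-Hochberg adjustment over all genes tested) and a fold change above 1.5. Of all genes tested, 9.10% were called higher and 4.97% lower in *KO* cells. *CCND1*, *CDK4*, *CCNE1*, *CDK2* and *CCNA2* passed the FDR but not the fold change, with lower levels in *KO* cells, where 21.9% of all genes were lower by the FDR alone. At an unadjusted p below 0.05 in edgeR 6 members were lower, and DESeq2 called 1, *CCNA2*. The median log2 fold change of the 9 members was -0.17, and that of all genes 0.03.

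The response to 5-FU was compared within each genotype. *CCND1* and *CCND3* were called higher in both, *CCNE2* was called in opposite directions, and *CDK4*, *CDK6* and *CCNE1* were called in neither. In *WT* cells *CCND1* and *CCND3* were called higher, whereas *CCNE2*, *CDC25A*, *CCNA2* and *CDK2* were called lower. These are 2 and 4 of 9 members, beside 18.5% of all genes called higher and 9.38% called lower. In *KO* cells *CCND1*, *CCND3* and *CCNE2* were called higher and 0 members lower by edgeR or DESeq2, beside 13.3% and 12.0% of all genes. By the FDR alone, as at an unadjusted p below 0.05, all 9 members passed in both genotypes, with 3 higher and 6 lower in *WT* cells and 6 higher and 3 lower in *KO* cells. Of all genes, 31.9% were higher and 28.3% lower by the FDR alone in *WT* cells, and 26.6% and 33.8% in *KO* cells. The median log2 fold change of the members was -0.34 in *WT* and 0.44 in *KO* cells, and that of all genes 0.03 and -0.06. With 1 RUVg factor, which varied almost only with the treatment (98.2% of its variance), 0 members were called in either genotype, and 3 and 1 of all genes were.

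**Figure D2:**
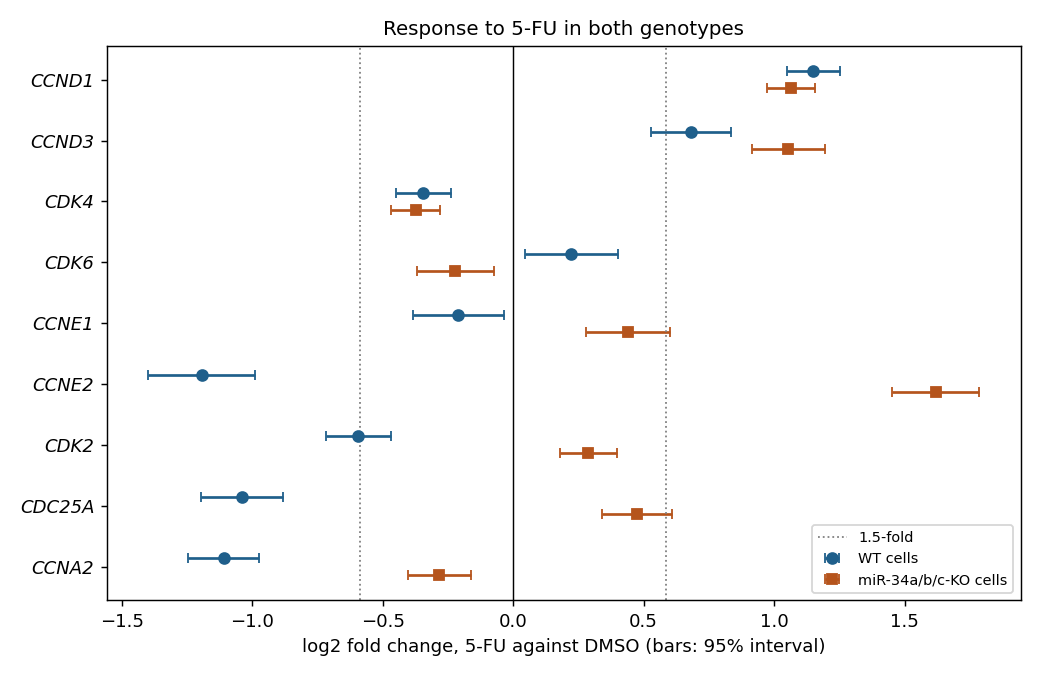
Response to 5-FU as log2 fold change against DMSO in *WT* cells (circles) and *KO* cells (squares) with 95% intervals from edgeR. Dotted lines mark a fold change of 1.5. The responses of *CCND1* and *CDK4* lay side by side, while those of *CCNE1*, *CCNE2*, *CDK2* and *CDC25A* were below 0 in *WT* and above 0 in *KO* cells, and those of *CDK6* the other way round (0.22 and -0.22).

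Levels of marker genes moved with the treatment and between the genotypes as well. Of 11 markers of leukocytes, endothelium and fibroblasts 8 stayed below 1 CPM in every library, among them *PTPRC*, *CD3E*, *PECAM1*, *DCN* and *PDGFRA*. *COL1A1*, *VWF* and *ITGAM* were expressed, *ITGAM* in DMSO only at 0.353 to 0.554 CPM. After 5-FU in *WT* cells all 3 were called higher, beside 18.5% of all genes. So were 4 of 8 tested epithelial markers, *KRT8*, *KRT18*, *KRT19* and *CDH1*. In *KO* cells 2 of the 3 and 5 of the 8 were called higher after 5-FU, beside 13.3% of all genes. *VWF* was lower in *KO* than in *WT* cells in 5-FU (1.59 to 1.64 and 5.59 to 6.12 CPM). In DMSO *COL1A1* was called higher in *KO* cells (log2 fold change 0.93), beside 9.10% of all genes. Of the 8 tested epithelial markers 0 were called higher there and 2 lower, beside 9.10% and 4.97% of all genes. These 2 were *KRT20* (-2.31) and *VIL1* (-2.61, at most 9 counts in a DMSO library). At the FDR alone *KRT19* (0.41) was higher and 4 were lower, beside 24.5% and 21.9% of all genes. In 5-FU *VIL1* was at 0.308 to 0.596 CPM in *WT* and at 1.03 to 2.21 CPM in *KO* cells. The summed level of the 11 markers was 23.8 to 28.7 CPM and 60.8 to 73.3 CPM in *WT* cells (DMSO and 5-FU), and 47.9 to 52.1 CPM and 81.9 to 83.6 CPM in *KO* cells. The summed level of the 10 epithelial markers was 5276 to 5563 CPM and 11137 to 12193 CPM in *WT* cells, and 5471 to 5670.2 CPM and 8561 to 9038 CPM in *KO* cells. Their part in the results was not tested.

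Under 5-FU the genotypes differed by 3 members called higher in *KO* cells, *CCNE2*, *CDK6* and *CDC25A*, and 0 called lower by edgeR or DESeq2, beside 7.58% and 10.6% of all genes. At the FDR alone, as at an unadjusted p below 0.05, 6 members were higher and 2 lower, beside 21.6% and 28% of all genes at the FDR alone. The interaction, i.e. the response in *KO* cells minus that in *WT* cells, was called for 5 of 9 members, *CCNE2*, *CDC25A*, *CDK2*, *CCNA2* and *CCNE1*, all in the direction of higher levels in *KO* cells. Of all genes tested 3.42% were called in this direction and 6.66% in the opposite direction. The split over all genes, 551 to 1073, depended on the scaling and was 676 to 844 with TMM factors and 703 to 674 with DESeq2, while the same number of members was called. The median interaction of the 9 members was 0.65, and that of all genes -0.09. These comparisons share libraries, so that their values for 1 gene are not independent of each other.

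**Figure D3:**
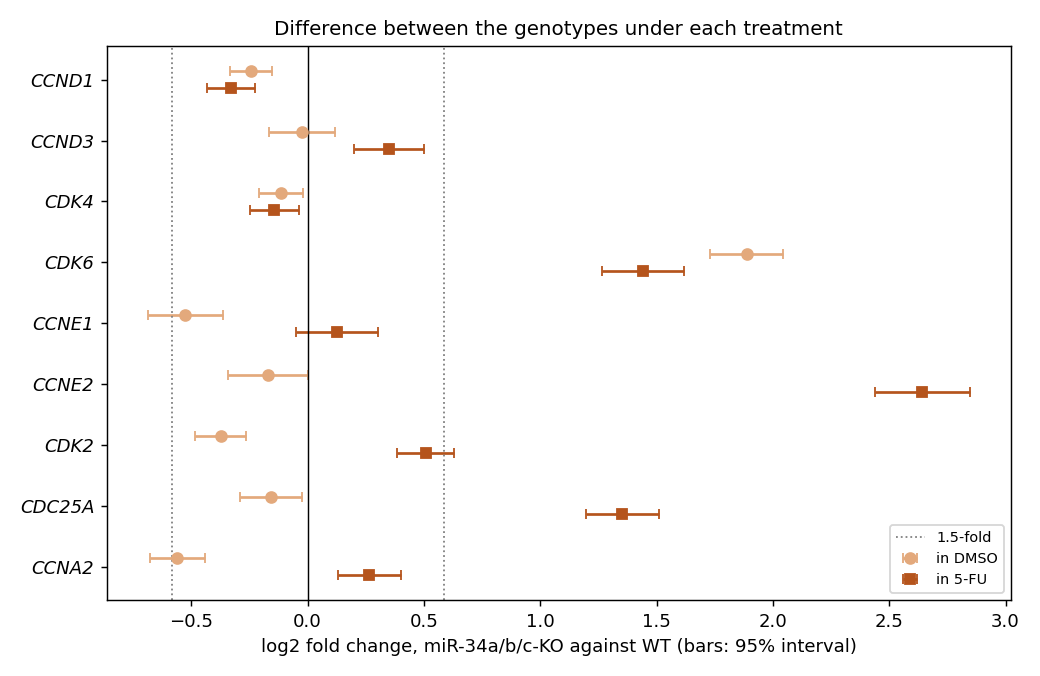
Difference between the genotypes as log2 fold change of *KO* against *WT* cells in DMSO (circles) and in 5-FU (squares) with 95% intervals from edgeR. Dotted lines mark a fold change of 1.5. *CDK6* was past the line under both treatments, *CCNE2* and *CDC25A* only in 5-FU.

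*CCND1* (chr11:69641156-69654474, plus strand, GRCh38) encodes cyclin D1, the main partner of *CDK4* in epithelial cells. In *WT* cells it was at 757, 705 and 774 CPM in DMSO and at 1649 and 1659.7 CPM in 5-FU. In *KO* cells it was at 622, 638 and 629 CPM in DMSO and at 1305, 1318 and 1326.5 CPM in 5-FU. The 4 groups did not overlap, with the order *KO* DMSO, *WT* DMSO, *KO* 5-FU and *WT* 5-FU. *CCND1* rose 2.22-fold after 5-FU in *WT* cells (log2 fold change 1.15, SE 0.047, edgeR FDR = 6.42e-12). In *KO* cells it rose 2.09-fold (log2 fold change 1.06, SE 0.044, edgeR FDR = 5.05e-12). A difference between these responses was not detected, with an interaction of -0.09 (95% interval -0.22 to 0.05, edgeR FDR = 0.346). The level was 1.18-fold lower in *KO* cells in DMSO (edgeR FDR = 0.000234) and 1.26-fold lower in 5-FU (edgeR FDR = 3.22e-05), both below the fold change required.

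*CCND3* (chr6:41934934-42050357, minus strand) encodes cyclin D3, which acts beside cyclin D1. It was at 40.5, 40.4 and 39.0 CPM in *WT* cells and at 37.8, 41.1 and 39.1 CPM in *KO* cells in DMSO, so that the genotypes overlapped (log2 fold change -0.02, 95% interval -0.17 to 0.12). In 5-FU it was at 69.8 and 58.1 CPM in *WT* cells and at 81.0, 81.6 and 82.5 CPM in *KO* cells. It rose 2.08-fold in *KO* cells (log2 fold change 1.06, SE 0.066, edgeR FDR = 8.97e-10). In *WT* cells it rose 1.60-fold (log2 fold change 0.68, SE 0.072, edgeR FDR = 5.33e-07), a call that was lost without *WT* 5-FU replicate 2 (log2 fold change 0.54). Between the genotypes in 5-FU the log2 fold change was 0.35 (edgeR FDR = 0.000689), not called. The interaction of 0.37 passed the FDR (edgeR FDR = 0.0105) but not the fold change. *CCND1* made up 95.1 to 96.9% of the D cyclin mRNA per kb in the means of the 4 groups and *CCND3* 3.10 to 4.91%. The sum of the D cyclins was 163.4 ± 7.39 CPM per kb in *WT* cells treated with DMSO and 358.5 ± 0.212 CPM per kb (SD, n = 2) in 5-FU, and in *KO* cells 139 ± 1.91 and 290.7 ± 2.37 CPM per kb (SD, n = 3).

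*CDK4* (chr12:57747727-57756013, minus strand), the main kinase partner of the D cyclins, was at 195, 191 and 192 CPM in *WT* cells and at 175, 175 and 184 CPM in *KO* cells in DMSO. In 5-FU it was at 156 and 148 CPM in *WT* cells and at 137, 136 and 140.4 CPM in *KO* cells. The 4 groups did not overlap, with the order *KO* 5-FU, *WT* 5-FU, *KO* DMSO and *WT* DMSO, and *WT* DMSO was 1.27-fold above *WT* 5-FU. The log2 fold change after 5-FU was -0.34 in *WT* cells (SE 0.049, edgeR FDR = 1.67e-05) and -0.37 in *KO* cells (SE 0.044, edgeR FDR = 2.05e-06), both below the fold change required. Between the genotypes it was -0.11 in DMSO (edgeR FDR = 0.0433) and -0.14 in 5-FU (edgeR FDR = 0.0242), not called either. The interaction of -0.03 (95% interval -0.17 to 0.11) changed its sign with the scaling (0.03 with TMM factors and 0.05 with DESeq2). *TSPAN31* and *MARCHF9* overlap *CDK4* on the opposite strand and reached 26.1 and 35.1 CPM. The sources used here do not state that the counting used the strand.

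*CDK6* (chr7:92604921-92836573, minus strand), the second kinase of the D cyclins, differed between the genotypes under both treatments. In *WT* cells it was at 32.7, 31.6 and 30.5 CPM in DMSO and at 32.7 and 41.3 CPM in 5-FU. In *KO* cells it was at 123, 113 and 114 CPM in DMSO and at 100.3, 95.9 and 104 CPM in 5-FU. Every library of *KO* cells was above every library of *WT* cells, while the treatments almost touched in *WT* cells. The difference between the genotypes was 3.70-fold in DMSO (log2 fold change 1.89, SE 0.074, edgeR FDR = 1.25e-11) and 2.72-fold in 5-FU (log2 fold change 1.44, SE 0.083, edgeR FDR = 1.53e-09). After 5-FU the log2 fold change was 0.22 in *WT* cells (edgeR FDR = 0.03) and -0.22 in *KO* cells (edgeR FDR = 0.0114), neither called. The interaction of -0.44 (SE 0.109) passed the FDR (edgeR FDR = 0.00713) but not the fold change, and was called without *WT* 5-FU replicate 2 (-0.61). Despite this difference *CDK6* remained the smaller share of the pair. It made up 3.98 ± 0.107% of the *CDK4* and *CDK6* mRNA per kb in *WT* cells and 14.2 ± 0.816% in *KO* cells in DMSO (SD, n = 3), and 5.81 ± 1.10% (SD, n = 2) and 15.5 ± 0.363% (SD, n = 3) in 5-FU. The sum of both kinases was 64.3 to 65.8 CPM per kb in *WT* and 65.8 to 68.9 CPM per kb in *KO* cells in DMSO, and overlapped between the genotypes in 5-FU (51.2 to 53.0 and 51.8 to 53.9 CPM per kb).

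The microRNAs deleted in these cells pair with their targets through the seed, bases 2 to 8, which is given in capitals in the mature sequences (RefSeq, GRCh38.p14, miR-34a-5p on chr1:9151735-9151756, minus strand, and miR-34b-5p on chr11:111512950-111512972, plus strand). They are shown because the matches to the seed of miR-34a were searched in the 3′ UTRs of the members.
hsa-miR-34a-5p: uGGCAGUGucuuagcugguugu
hsa-miR-34b-5p: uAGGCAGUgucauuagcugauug
The stretch that pairs with CACTGCC begins at base 2 of miR-34a-5p and at base 3 of miR-34b-5p, so that the seeds of these 2 microRNAs are shifted by 1 base. hsa-miR-34c-5p is the third member of the family.

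In the canonical 3′ UTRs of GENCODE 44, *CDK6* had 2 matches to CACTGCC (sense strand only), *CCNE2* had 1, and the other 8 members had 0. The stretches of *CDK6* are shown on the transcript strand with the match in capitals, at positions 1088 and 9181 of a 3′ UTR of 10219 bases (chr7:92614045-92614067 and chr7:92605952-92605974, minus strand, GRCh38).
CDK6 match 1: gtactttctgccacaCACTGCCt
CDK6 match 2: agcagtgtggaaattCACTGCCt
Both are followed by T and not by the A that extends a match to the seed of miR-34a to 8 bases. With this T both hold ACTGCCT, the full match to the shifted seed of miR-34b-5p, which was not searched in the other members. The match of *CCNE2*, at position 123 of a 3′ UTR of 1408 bases, was followed by A. Of 13108 tested genes with an annotated 3′ UTR, 17.6% had a match, and long 3′ UTRs had more of them. Among the 429 genes whose 3′ UTR was within 1.5-fold of the length of that of *CDK6*, 52% had a match and 19.3% had 2 or more. Among the 3438 genes within 1.5-fold of *CCNE2* 18.3% had a match. A match describes the sequence and is not a shown site of repression.

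*CCNE1* (chr19:29811991-29824312, plus strand) encodes cyclin E1, an activator of *CDK2*. In *WT* cells it was at 32.2, 33.6 and 32.2 CPM in DMSO and at 30.2 and 26.2 CPM in 5-FU. In *KO* cells it was at 23.4, 20.9 and 23.7 CPM in DMSO and at 32.3, 30.9 and 29.2 CPM in 5-FU. The *KO* libraries in DMSO were the lowest, while those in 5-FU overlapped with *WT* cells under either treatment. In DMSO the level was 1.44-fold lower in *KO* cells (log2 fold change -0.53, SE 0.076, edgeR FDR = 3.22e-05), below the fold change required. The log2 fold change after 5-FU was -0.21 in *WT* cells (SE 0.082, edgeR FDR = 0.0367) and 0.44 in *KO* cells (SE 0.076, edgeR FDR = 0.000101), neither of them called. The interaction was called (0.65, SE 0.112, edgeR FDR = 0.000581), but not without *WT* 5-FU replicate 3 (0.55). In 5-FU a difference between the genotypes was not detected (log2 fold change 0.13, 95% interval -0.05 to 0.30, edgeR FDR = 0.22).

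*CCNE2* (chr8:94879770-94896678, minus strand) encodes cyclin E2, the second activator of *CDK2*. In DMSO it was at 23.2, 22.6 and 22.2 CPM in *WT* cells and at 20.6, 18.3 and 21.4 CPM in *KO* cells. In 5-FU it was at 8.89 and 11.04 CPM in *WT* cells and at 61.1, 62.7 and 61.6 CPM in *KO* cells. The genotypes thus lay next to each other in DMSO and were 6.24-fold apart in 5-FU. *CCNE2* fell 2.29-fold after 5-FU in *WT* cells (log2 fold change -1.19, SE 0.096, edgeR FDR = 2.28e-08). It rose 3.07-fold in *KO* cells (log2 fold change 1.62, SE 0.078, edgeR FDR = 3.8e-11). The interaction was 2.81 (SE 0.124, edgeR FDR = 1.34e-09), and the log2 fold change between the genotypes in 5-FU was 2.64 (SE 0.096, edgeR FDR = 9.86e-12). In DMSO the log2 fold change between the genotypes was -0.17 (95% interval -0.34 to 0.000202, edgeR FDR = 0.0952) and did not pass. *INTS8* and *NDUFAF6* overlap *CCNE2* on the opposite strand and reached 139 and 19.0 CPM, and their log2 fold changes between the genotypes in 5-FU were 0.41 and 0.31.

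The E cyclins changed their proportions. *CCNE2* made up 28.0 ± 0.663% of the E cyclin mRNA per kb in *WT* cells and 33.2 ± 0.350% in *KO* cells treated with DMSO (SD, n = 3). In 5-FU it made up 16.6 ± 3.49% in *WT* cells (SD, n = 2) and 52.9 ± 1.38% in *KO* cells (SD, n = 3), where *CCNE2* exceeded *CCNE1* in each of the 3 libraries. The sum of *CCNE1* and *CCNE2* was 18.4 ± 0.330 CPM per kb in *WT* cells treated with DMSO, 13.8 ± 0.990 in *KO* cells treated with DMSO, 13.7 ± 0.799 in *WT* cells treated with 5-FU and 26.6 ± 0.618 in *KO* cells treated with 5-FU. No library of another group reached the 25.9 CPM per kb of the lowest *KO* library in 5-FU.

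**Figure D4:**
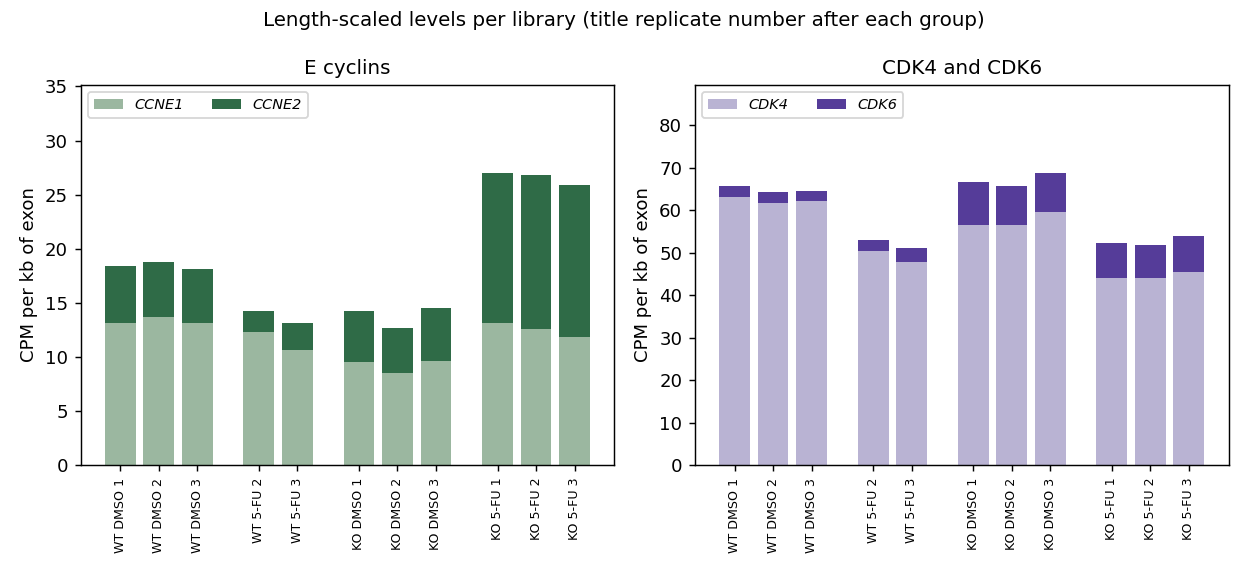
Levels in CPM per kb of exon, stacked for *CCNE1* and *CCNE2* (left) and for *CDK4* and *CDK6* (right), 1 bar per library on axes that start at 0. The dark part of the E cyclins, *CCNE2*, was smallest in *WT* cells treated with 5-FU (14.2 and 19.1% of the bar) and largest in *KO* cells treated with 5-FU (51.4 to 54.2%).

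*CDK2* (chr12:55966781-55972789, plus strand) is the kinase of cyclins E and A. In *WT* cells it was at 122, 132 and 122 CPM in DMSO and at 79.3 and 87.1 CPM in 5-FU. In *KO* cells it was at 95.4, 99.5 and 95.5 CPM in DMSO and at 119, 122 and 114 CPM in 5-FU. The treatments were ordered in opposite ways in the genotypes, without overlap. In *WT* cells *CDK2* fell 1.51-fold (log2 fold change -0.59, SE 0.058, edgeR FDR = 2.43e-07). This was just past the fold change required and was not called without *WT* DMSO replicate 2 (-0.56) or without *WT* 5-FU replicate 2 (-0.53). In *KO* cells the log2 fold change was 0.29 (SE 0.052, edgeR FDR = 0.00015), below the fold change required. The interaction was 0.88 (SE 0.078, edgeR FDR = 1.08e-06), and *CDK2* was 1.29-fold lower in *KO* cells in DMSO and 1.42-fold higher in 5-FU. *PMEL* overlaps *CDK2* on the opposite strand and reached 8.85 CPM.

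*CDC25A* (chr3:48157146-48188417, minus strand), the phosphatase that activates *CDK2*, was at 40.8, 40.7 and 38.2 CPM in *WT* cells and at 35.4, 37.2 and 34.6 CPM in *KO* cells in DMSO. In 5-FU it was at 20.3 and 18.5 CPM in *WT* cells and at 48.9, 51.0 and 48.9 CPM in *KO* cells. The *WT* libraries in 5-FU were the lowest and the *KO* libraries in 5-FU the highest, and no groups overlapped. *CDC25A* fell 2.05-fold in *WT* cells (log2 fold change -1.04, SE 0.074, edgeR FDR = 5.11e-09). In *KO* cells the log2 fold change was 0.47 (SE 0.063, edgeR FDR = 6.98e-06), below the fold change required. In DMSO the genotypes differed by -0.16 on the log2 scale, which did not pass (SE 0.063, edgeR FDR = 0.051). The interaction was 1.51 (SE 0.097, edgeR FDR = 6.27e-08), and the difference between the genotypes in 5-FU was 2.55-fold (log2 fold change 1.35, SE 0.074, edgeR FDR = 8.69e-10).

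*CCNA2* (chr4:121816444-121823883, minus strand) encodes cyclin A2, the partner of *CDK2* in S phase. It was at 137, 148 and 138 CPM in *WT* cells and at 96.1, 95.3 and 95.2 CPM in *KO* cells in DMSO. In 5-FU it was at 60.4 and 70.4 CPM in *WT* cells and at 80.2, 78.9 and 76.4 CPM in *KO* cells. All 4 groups were separate, and 5-FU went with lower levels in both genotypes. *CCNA2* fell 2.16-fold in *WT* cells (log2 fold change -1.11, SE 0.064, edgeR FDR = 3.99e-10). In *KO* cells the log2 fold change was -0.28 (SE 0.057, edgeR FDR = 0.000409), below the fold change required. The interaction was 0.83 (SE 0.085, edgeR FDR = 5.02e-06). The genotypes changed places, as *CCNA2* was 1.47-fold lower in *KO* cells in DMSO (edgeR FDR = 5.88e-07) and 1.20-fold higher in 5-FU (edgeR FDR = 0.00259). The first of these was called with DESeq2 (log2 fold change -0.59). *EXOSC9* overlaps *CCNA2* on the opposite strand and reached 84.9 CPM.

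E2F factors bind upstream of several of these genes, and the RefSeq promoter sequences (GRCh38.p14, 250 bases before to 50 bases after a start) were searched for words of the E2F consensus (TTTCCCGC, TTTCGCGC, TTTGCCGC and TTTGGCGC, both strands) and of the CHR element of late cell cycle genes (TTTGAA and TTCGAA, both strands). For 6 members, *CDC25A*, *CCNA2*, *CCND3*, *CDK6*, *CDK4* and *CCNE1*, windows were in the sequences used here. Of these, *CDC25A* held an E2F word, which began 44 bases before the start and is shown in capitals because *CDC25A* had the largest interaction of the members after *CCNE2* (chr3:48188443-48188472, minus strand).
CDC25A: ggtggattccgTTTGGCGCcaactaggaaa
E2F words were present in 3.31% of 35116 windows and for 6.43% of 11177 tested genes. CHR words were found for 0 of the 6 members, beside 15.2% of tested genes. A word is a description of the sequence, and its absence says only that these letters are not in this window.

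Among the other genes of the G1/S machinery (43 listed, 42 tested), 2 were called higher and 2 lower in *KO* cells in DMSO, beside 9.10% and 4.97% of all genes. After 5-FU 3 were called higher and 10 lower in *WT* cells, and 10 higher and 7 lower in *KO* cells, beside 18.5% and 9.38% of all genes in *WT* and 13.3% and 12.0% in *KO* cells. The difference between the genotypes in 5-FU was called for 7 genes (higher) and 1 gene (lower), beside 7.58% and 10.6% of all genes. The interaction was called for 9 genes (higher) and 1 (lower), beside 3.42% and 6.66% of all genes. Their median log2 fold change was -0.32 in *WT* cells and 0.002 in *KO* cells after 5-FU, and their median interaction was 0.08, where those of all genes were 0.03, -0.06 and -0.09.

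Of the pocket proteins, which bind E2F, and the E2F factors with their partners (13 tested), 5 were called with a positive and 0 with a negative interaction, beside 3.42% and 6.66% of all genes. They are named here after their values were seen. The interaction was 1.37 for *E2F8*, 1.20 for *E2F2*, 1.10 for *E2F1*, 1.03 for *RBL1* and 0.92 for *E2F7* (edgeR FDR of 1.97e-07 to 6.07e-05). After 5-FU *E2F1* (log2 fold change -0.87) and *RBL1* (-0.76) fell in *WT* cells, *E2F2* (0.82), *E2F8* (0.96) and *RB1* (0.59) rose in *KO* cells, and *E2F7* rose in both (0.96 and 1.87). In DMSO *E2F2* (-0.69) and *E2F8* (-0.81) were called lower in *KO* cells. In 5-FU *E2F7* (1.05), *E2F1* (0.93), *RB1* (0.73) and *RBL1* (0.60) were called higher in *KO* cells.

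The inhibitors of these kinases were called in both directions. *CDKN1A*, encoding p21, was at 167 CPM in *WT* and 469 CPM in *KO* cells in DMSO and at 2078 and 2481 CPM in 5-FU. It rose less in *KO* cells, with log2 fold changes of 3.64 in *WT* (SE 0.053) and 2.40 in *KO* cells (SE 0.048) and an interaction of -1.24 (SE 0.068, edgeR FDR = 1.41e-08). *CDKN2B*, encoding the *CDK4* and *CDK6* inhibitor p15, was higher in *KO* cells in DMSO (log2 fold change 1.43, edgeR FDR = 1.12e-09) and in 5-FU (1.55, edgeR FDR = 1.35e-09). *CDKN2C*, encoding p18, was called higher in *KO* cells in 5-FU (log2 fold change 1.12, SE 0.090) and had an interaction of 0.95 (SE 0.120, edgeR FDR = 3.45e-05). *CDKN2D* was called higher in *KO* cells in 5-FU (log2 fold change 0.60), and in DMSO its 0.50 passed the FDR but not the fold change. After 5-FU 3 of the 7 inhibitors were called higher in *KO* cells, *CDKN1A*, *CDKN2B* (0.61) and *CDKN2C* (0.60), beside 13.3% of all genes. *CDKN1C* (-0.77) and *CDKN2A* (-0.84) were called lower in *KO* cells, beside 12.0% of all genes. In *WT* cells both also fell (-0.58 and -0.55), past the FDR but not the fold change.

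The kinases that place inhibitory phosphates on cyclin-dependent kinases both had positive interactions. *WEE1* fell in *WT* cells after 5-FU (log2 fold change -1.24, SE 0.076) and had an interaction of 0.88 (SE 0.100, edgeR FDR = 1.28e-05). *PKMYT1* rose in *KO* cells (log2 fold change 0.59, SE 0.090) and had an interaction of 0.70 (SE 0.134, edgeR FDR = 0.00124). *CDK1*, the mitotic kinase, rose in *KO* cells (log2 fold change 0.78, SE 0.075) and had an interaction of 0.95 (SE 0.112, edgeR FDR = 1.79e-05). The mitotic cyclin *CCNB1* fell in both genotypes (log2 fold changes -0.89 in *WT* and -0.97 in *KO* cells, interaction -0.08), and so did *CCNB2* (-0.93 and -0.91, interaction 0.02). *CDC25B*, a phosphatase of the same family as *CDC25A*, also fell in both (-0.89 and -0.86). *CCNC* was called lower in *WT* cells (-0.68) and also fell in *KO* cells (-0.46, edgeR FDR = 2.4e-05), below the fold change required.

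Of the genes for the degradation of cyclins, *FBXW7*, the receptor of the ubiquitin ligase for cyclin E, rose after 5-FU in *WT* (log2 fold change 0.96, SE 0.091) and in *KO* cells (1.13, SE 0.083). *SKP2*, the receptor for p27, was called lower after 5-FU in *WT* cells (-0.90, SE 0.077). In *KO* cells it also fell (-0.57, edgeR FDR = 1.96e-06), just below the fold change required. Its cofactor relative *CKS2* fell in both genotypes (-1.15 and -0.85). *FBXO4*, which has been linked to the turnover of cyclin D1, fell in both genotypes from 7.9 to 2.8 CPM (log2 fold changes -1.52 and -1.52). Of the CDK-activating kinase, *CDK7* was called lower in *KO* cells in 5-FU (-0.72, SE 0.085). It was also lower in *KO* cells in DMSO (-0.56, edgeR FDR = 1.95e-05), below the fold change required.

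The pattern of each member over the 4 groups was compared with that of 14001 genes with a mean of at least 1 CPM by the root mean square difference of the 4 group means of log2 CPM, each set centered on its own mean. *CCNE2* stood alone by this measure, with 0 genes within 0.2. The closest were *RN7SK* (0.21, group means of 0.548 to 2.55 CPM), *AC118281.1* (0.39, 0.987 to 1.53 CPM) and *HES6* (0.42, 26.6 to 91.1 CPM). *AC118281.1* did not share the fall after 5-FU in *WT* cells, with 0.987 CPM in DMSO and 1.11 CPM in 5-FU. *CDK6* had 13 genes within 0.2, led by *D2HGDH* (0.085), *AC012063.1* (0.086) and *FBXO10* (0.093). *CDC25A* had 29, led by *FAM222A* (0.070), *CLSPN* (0.11) and *ATAD5* (0.12). The patterns of *CCND1* (214 genes, led by *LTB4R*, *CNIH2* and *NOCT*) and *CCNA2* (413, led by *TMPO*, *DEK* and *ITGB3BP*) were more common. *CDK2* (1038 genes, led by *DONSON*, *CCNF* and *FIGNL1*) and *CCNE1* (1396, led by *PLEKHA1*, *ARID5B* and *PRR19*) had more still. Genes with small differences between the groups, such as *CDK4* with 4425, are close to many others by construction.

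To see whether the differences extended along the chromosome, the 10 tested genes on each side of a member were read beside it. Around *CDK6* the median log2 fold change of the 20 neighbours between the genotypes was 0.11 in DMSO and -0.01 in 5-FU, and 0 of 20 were above *CDK6* under either treatment. The adjacent genes *FAM133B* and *SAMD9* had log2 fold changes of -0.14 and 0.04 in DMSO, and of 0.17 and -1.26 in 5-FU. The lowest of the 20 neighbours was *SAMD9L*, next to *SAMD9*, with -1.62 in DMSO and -3.39 in 5-FU. Around *CCNE2* the median was 0.41 in DMSO, with 18 of 20 neighbours higher in *KO* cells and 19 of 20 above *CCNE2* itself. In 5-FU the median was 0.42 and all 20 neighbours were higher, up to 1.26, below the 2.64 of *CCNE2*. The interaction of *CCNE2* compares the responses within each genotype, in which the neighbours had medians of -0.31 (*WT*) and -0.06 (*KO*), beside -1.19 and 1.62 for *CCNE2*. Around *CDC25A* 0 of 20 neighbours were above it in 5-FU. Around *CCNE1* 4 of 20 neighbours were higher in *KO* cells under each treatment. Their medians were -0.206 in DMSO and -0.295 in 5-FU, beside -0.53 and 0.13 for *CCNE1*.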

How the data were processed

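RNA of 12 labelled libraries was sequenced by the authors, aligned in CLC Genomics Workbench (GRCh38) and counted per gene. The deposited values are raw counts per gene symbol, without filter or normalization. Groups were taken from the sample titles. The library titled *WT* 5-FU replicate 1 was identical to *WT* DMSO replicate 3 in every gene, carried the latter's column name and was left out. The column names of the other *WT* 5-FU libraries are numbered 1 lower than their titles.

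The filter kept genes that reached 20 counts in any library. Upper-quartile factors (0.955 to 1.05) and 1 quasi-likelihood model with a mean per group were computed with edgeR 4.0.16 (R 4.3.3, glmQLFit and glmQLFTest, two-sided), with Benjamini-Hochberg adjustment across the genes tested in each comparison and a biological coefficient of variation of 6.72%. SE is the log2 fold change divided by the root of the F statistic. Filter, scaling and thresholds follow the methods of the study. The study used DESeq2 after RUVg for differences between groups and edgeR for the interaction, whereas edgeR was used here for all comparisons. Its RUVg step names no control genes and was an alternative here (1 factor, 11123 control genes). Other alternatives were TMM factors, DESeq2 1.42.0, other filters, no minimum fold change, a replicate block, the identical library as labelled and leaving out each library. The tests were tried on simulated counts. Levels per kb used the union of exons in GENCODE 44, and depth limits precision by counting error only.

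The members and lists were chosen with earlier results of these data known. All members are named, other genes of the G1/S machinery where called (the pocket protein and E2F list by counts under the rule, its called genes named after their values were seen), and for the pattern over groups the 3 closest genes. Comparisons between same-numbered libraries showed no pairing (15 pairs, r of -0.184 to 0.149, 1 of them over 0.1).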

Additional observations from a re-analysis of the deposited data

Results flagged for a closer look

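For 5 members the responses to 5-FU differed between the genotypes by the test of the interaction itself (edgeR, FDR below 0.05 and more than 1.5-fold). On the log2 scale, response in *KO* cells minus response in *WT* cells, the difference was 2.81 for *CCNE2*, 1.51 for *CDC25A*, 0.88 for *CDK2*, 0.83 for *CCNA2* and 0.65 for *CCNE1*. The responses behind them had opposite signs for *CCNE2* (-1.19 in *WT* and 1.62 in *KO* cells), *CDC25A* (-1.04 and 0.47), *CDK2* (-0.59 and 0.29) and *CCNE1* (-0.21 and 0.44), and the same sign for *CCNA2* (-1.11 and -0.28). Only for *CCNE2* were both responses called.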

How the results depend on the processing

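The counts of called members were recomputed under each alternative. With DESeq2 (*CCNA2*) or with RUVg (*CCNE1*) 1 member was called lower in *KO* cells in DMSO. Without a minimum fold change 5 were lower there, and 3 were higher and 6 lower after 5-FU in *WT* cells. In *KO* cells 6 were then higher and 3 lower after 5-FU. Under this setting 6 were higher and 2 lower between the genotypes in 5-FU, and 6 interactions were positive and 1 negative. With RUVg 0 were higher and 0 lower after 5-FU in *WT* cells, 0 higher in *KO* cells, and 1 interaction was negative. The positive interaction of *CCND3* was called as well with RUVg (0.625). With the identical library as labelled 0 were higher and 0 lower in *WT* cells after 5-FU, and 2 interactions were positive. Leaving out 1 library gave 1 to 2 members higher and 3 to 4 lower after 5-FU in *WT* cells, 4 to 5 positive and 0 to 1 negative interactions. The 1 higher member and the 1 negative interaction came without *WT* 5-FU replicate 2, the 3 lower members without it or without *WT* DMSO replicate 2, and the 4 positive interactions without *WT* 5-FU replicate 3. The other counts did not move.

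Some values changed sign. The interaction of *CDK4* was 0.0304 with TMM factors, 0.0497 with DESeq2, 0.0017 without filter and 0.0268 with RUVg, and ranged from -0.0656 to 0.0106 when 1 library was left out (0.0106 without *WT* 5-FU replicate 2). The genotype difference of *CCND3* in DMSO ranged from -0.0543 to 0.0048, the latter without *KO* DMSO replicate 1. With RUVg that of *CCNE2* in DMSO was 0.20, the responses in *WT* cells were -1.47 (*CCND3*), 1.15 (*CCNE2*), 0.33 (*CDK2*) and 0.93 (*CCNA2*), and those in *KO* cells -0.84 (*CCND3*), 3.12 (*CDK6*), -0.52 (*CCNE1*), -0.38 (*CDC25A*) and 1.53 (*CCNA2*). With the identical library as labelled the genotype difference of *CCNA2* in 5-FU was -0.19 and the interaction of *CCND1* 0.20. The cause was not tested beyond the construction of these alternatives. Of the other values per gene 839 kept direction and call, 26 gained a call and 17 lost it. The replicate block, with the numbers of the titles or of the column names (the latter chosen after seeing the data), changed no count of members (5 positive interactions with either). *CCND2* had at most 3 counts in a library and has no value here.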

Other observations

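Between members the patterns over the 4 groups were closest for *CCNE1* and *CDK2* (root mean square difference 0.196 on the log2 scale), followed by *CDK2* and *CDK4* (0.267) and *CCNA2* and *CDK4* (0.272). The E cyclins were 0.895 apart, further than *CCNE2* and *CDC25A* (0.517). *CDK4* and *CDK6* were 0.920 apart, and the D cyclins *CCND1* and *CCND3* 0.283. These are values over 4 group means of the same 11 libraries, with no test.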
